A study of Mus musculus with 61 samples.

Results

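Skeletal muscle of the inbred mouse strain AJ was compared directly with that of the strain B6, with 8 libraries per strain. The libraries were chosen by the strain prefix of their titles, and these 16 of the 61 libraries of the series were set against each other across 16682 tested genes of the 19462 in the count table. Each library was a muscle RNA sample, and the labels put both strains on the same high-fat, high-sugar diet (HFHS, with 45 percent of fat in the diet label), so the contrast asks how the muscle transcriptome differs with strain on that diet. Neither strain was labelled as a control, and differences are given as AJ minus B6. The labels name the strains as AJ and B6 alone. They give no sex, age, muscle or batch. Nothing in them ties a library to its own animal, so each p-value reflects variation among libraries, part of which may be technical.

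AJ mice descending from the A/J colony carry a retrotransposon in Dysf, the gene of dysferlin, which brings vesicles to torn muscle membranes so that they reseal. Mice of the C57BL/6J line, the usual bearer of the name B6, carry a partial deletion of Nnt, a proton-pumping enzyme of the inner mitochondrial membrane that makes NADPH. When muscle fibres are lost, satellite cells that bear Pax7 divide, fuse with the help of myomaker and form new fibres. New fibres first use embryonic and perinatal myosin heavy chains and an acetylcholine receptor that contains the gamma subunit, and macrophages clear the debris.

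Total estimated counts were 20.8 to 44.6 M per AJ library and 19.2 to 46.1 M per B6 library, with 14161 to 15341 and 13349 to 15485 genes at 10 counts or more. One B6 library, B6_5, stood apart: 46.3% of its counts came from the ribosomal RNA gene Rn18s-rs5, against 3.68 to 9.58% in AJ and 4.14 to 9.11% in the other 7 B6 libraries, and its 20 most abundant genes held 75.3% of its counts. Results below are therefore also given without B6_5. The B6 libraries B6_1 and B6_6 had summed lymphocyte markers of 365 and 166 CPM (library counts put on a common scale with TMM factors), above the 19.2 to 59.9 CPM of the other B6 libraries and the 71.7 to 116 CPM of AJ. In both strains, Xist, a female transcript, was high in the libraries numbered 1 to 4 (207 to 267 CPM in AJ and 182 to 245 CPM in B6) and Ddx3y, a male transcript, in those numbered 5 to 8 (71.1 to 82.7 CPM in AJ and 73.99 to 91.9 CPM in B6), so both strains split evenly on this point. The summed markers of skeletal muscle were 156898 to 181462 CPM in AJ (median 165338), against 152460.0 to 244183 CPM in B6 (median 182387), and B6_5 was the highest. Summed hepatocyte markers reached 2052 CPM in AJ and 3235 CPM in B6, and summed keratinocyte markers 59.1 and 273 CPM, which are low beside muscle and uneven between libraries.

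Of the 16682 genes, 3118 (18.7%) differed between AJ and B6 (edgeR's quasi-likelihood test with Benjamini-Hochberg adjustment, threshold 0.05). Of these, 1431 (8.58%) were higher and 1687 (10.1%) lower in AJ. Most differences were small: the median size among called genes was 0.56 log2 units, and 847 genes (5.08%) passed a full log2 unit, 370 of them (2.22%) higher and 477 (2.86%) lower. All 8 AJ libraries lay above all 8 B6 libraries for 614 genes (3.68%) and below them for 551 genes (3.3%), 1165 (6.98%) in all, and 1112 of the called genes (35.7%) were among them. Without B6_5, 2992 genes were called (18% of those tested), 1377 higher (8.26%) and 1615 lower (9.69%). Without B6_1 and B6_6, 2912 were called (17.4%), 7.93% higher and 9.43% lower, and without these 3 libraries 2715 (16.1%), 7.32% higher and 8.73% lower. The balance of directions depended on the scaling. With libraries scaled to total counts in place of TMM factors, 3072 genes were called (18.4%), 2459 higher (14.7%) and 613 lower (3.67%), so 80.0% of called genes were higher, against 45.9% with TMM factors, and the median difference over all tested genes was 0.16 log2 units in place of -0.03. The TMM factor of B6_5 was 0.417, against 0.936 to 1.09 in the other AJ and B6 libraries. Total-count scaling was run only with B6_5 included, so the part of B6_5 in this shift was not tested. Split by the library numbers that separate Xist from Ddx3y, 1322 genes were called in numbers 1 to 4 (7.74% of those tested, 3.72% higher and 4.01% lower) and 1322 in numbers 5 to 8 (7.74%, 3.63% higher and 4.1% lower), with 4 libraries a strain. A test of whether the difference itself differed between these number groups called 2 genes (edgeR, adjusted p), with 549 at an unadjusted p under 0.05. The titles also carry ORSAM numbers of unstated meaning, which run on through the 8 AJ libraries and set B6_1 to B6_4 in a block apart from B6_5 to B6_8. Against these B6 blocks separately, with all 8 AJ libraries, 2234 and 2460 genes were called. In this bulk tissue, fewer cells of a type and less RNA per cell cannot be told apart.

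**Figure D1:**
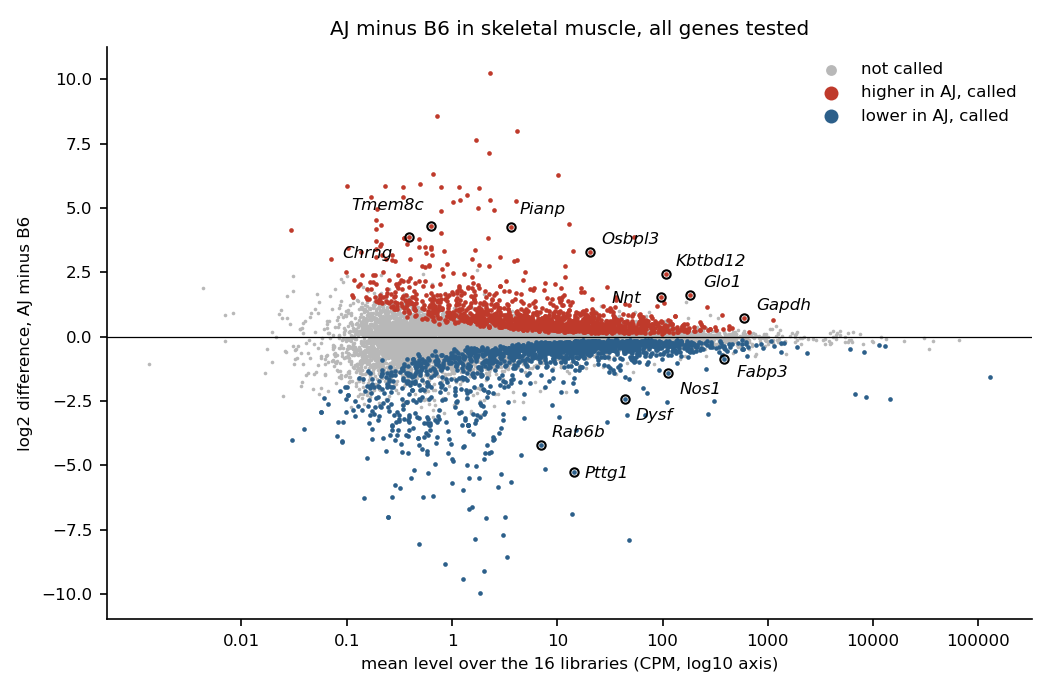
Each point is a gene, placed by its mean level over the AJ and B6 libraries (CPM, log10 axis) and by its difference AJ minus B6 (log2 units), with the genes past the threshold in colour. The 1431 higher and 1687 lower genes lie on both sides of 0 across the range of levels, and the labelled genes are described in the text.

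Dysf (chr6:84008590-84211060, + strand, GRCm38) was the most clearly lowered gene of the membrane repair list. It stood at 11.1 to 16.3 CPM in AJ (median 14.1), against 61.02 to 84.7 CPM in B6 (median 73.1). AJ lay wholly below B6. The difference was -2.42 ± 0.10 log2 units (SE, adjusted p = 6.42e-28), and each number group alone showed it (-2.37 in numbers 1 to 4 and -2.46 in numbers 5 to 8). Dysf overlaps other annotated genes on either strand, and whether counting used strand is not given in the sources used here, so reads of such neighbours cannot be told apart.

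Of the 22 tested members of the membrane repair list, 5 were higher and 3 lower in AJ, against 8.58% higher and 10.1% lower over all genes. With total-count scaling 7 were higher and 1 lower. Anxa4, which encodes a calcium-dependent membrane-binding annexin, stood at 20.8 to 24.4 CPM in AJ (median 22.8), against 10.03 to 14.1 CPM in B6 (median 11.5), a difference of 0.95 ± 0.10 log2 units (SE, adjusted p = 8.42e-11). Ahnak, whose product is a giant protein that binds dysferlin, stood at 1254 to 1548 CPM in AJ (median 1392), against 772 to 1057 CPM in B6 (median 861), a difference of 0.66 ± 0.17 log2 units (SE, adjusted p = 0.00317). Neither gene overlapped between the strains. Parvb, the gene of the dysferlin-binding protein beta-parvin, differed by 0.48 ± 0.08 log2 units (SE, adjusted p = 4.56e-06) and Ptrf, the gene of the caveola protein cavin-1, by 0.45 ± 0.09 log2 units (SE, adjusted p = 0.000171), again with no overlap. Capn3, the muscle calpain gene, averaged 111 ± 4.89 CPM in AJ and 134 ± 10.9 CPM in B6 (SD, n = 8 each). The difference was -0.27 ± 0.09 log2 units (SE, adjusted p = 0.0258), a call that was lost when a library was left out (adjusted p = 0.0517 without B6_3). Anxa6, an annexin gene whose product gathers at membrane wounds, was lower by less (-0.21 ± 0.06 SE, adjusted p = 0.0137), and Chmp4b, of the ESCRT machinery that sheds damaged membrane, was higher (0.19 ± 0.06 SE, adjusted p = 0.0125).

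In the dystrophin complex, which anchors the fibre cytoskeleton to the matrix, 4 of 19 tested members were higher and 3 lower. Over all genes, 8.58% were higher and 10.1% lower. Nos1, the neuronal nitric oxide synthase gene, whose product sits at the muscle membrane, stood at 46.2 to 80.5 CPM in AJ (median 58.3), against 128 to 192 CPM in B6 (median 164). AJ lay wholly below B6 (-1.40 ± 0.15 SE, adjusted p = 8.16e-11). Lama2, the laminin alpha-2 gene of the muscle basement membrane, was higher in AJ (117 ± 7.37 CPM in AJ and 76.3 ± 7.51 CPM in B6; 0.62 ± 0.08 SE, adjusted p = 3.43e-09), and so was Sntb2, which encodes beta-2-syntrophin (0.46 log2 units, adjusted p = 0.00104). With total-count scaling, 5 members were higher and 1 lower. Sgca, the alpha-sarcoglycan gene, was higher without overlap (0.34 ± 0.06 SE, adjusted p = 3.66e-05), and so was Pomgnt1, of the enzyme that glycosylates dystroglycan, with overlap (0.15 ± 0.05 SE, adjusted p = 0.0356), a call that was lost (adjusted p = 0.0512 to 0.134 without any 1 of AJ_3, AJ_4, AJ_5, AJ_6, B6_5 and B6_7). Nos1, Lama2, Sntb2, Sgca and Pomgnt1 overlap other genes.

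Of the 18 tested members of the regeneration and satellite cell list, 4 were higher and 4 lower in AJ. Over all genes, 8.58% were higher and 10.1% lower. The members called higher were mostly genes of fibre formation and those called lower genes of satellite cells. Over all 18 members, 9 had a difference above 0 and the list median was -0.03 log2 units. The calls do not speak for the list as a whole. With total-count scaling 4 members were higher and 2 lower, and Pax7 and Cdh15 were no longer called. Tmem8c, the older symbol of the gene of myomaker, which fuses myoblasts (chr2:27061636-27072179, - strand), stood at 0.775 to 1.61 CPM in AJ (median 1.204), against 0 to 0.173 CPM in B6 (median 0.0362). The gene was nearly silent in B6, with 14 reads over the 8 libraries against 348 in AJ, so its fitted difference of 4.29 ± 0.69 log2 units (SE, adjusted p = 2.21e-06) depends on the prior count added to low values. Myh8, the perinatal myosin heavy chain gene (chr11:67277124-67308634, + strand), stood at 8.63 to 20.4 CPM in AJ (median 15.8), against 2.42 to 5.41 CPM in B6 (median 3.25). AJ lay wholly above B6, by 2.06 ± 0.23 log2 units (SE, adjusted p = 1.91e-10). Myh3, the embryonic myosin heavy chain gene, stood at 10.1 to 24.4 CPM in AJ (median 20.01), against 5.22 to 12.2 CPM in B6 (median 7.57), a difference of 1.25 ± 0.29 log2 units (SE, adjusted p = 0.00101), with some overlap. Ncam1, an adhesion gene of new and denervated fibres, differed by 0.41 ± 0.12 log2 units (SE, adjusted p = 0.0111).

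The 4 members called lower were satellite cell genes. Calcr, the calcitonin receptor gene that keeps satellite cells quiescent, stood at 0.124 to 0.435 CPM in AJ (median 0.162), against 0.478 to 0.748 CPM in B6 (median 0.661). Myf5, an early muscle determination factor, stood at 0.221 to 0.705 CPM in AJ (median 0.481), against 0.744 to 1.25 CPM in B6 (median 0.997). Both lay wholly below B6 (-1.58 ± 0.33 SE, adjusted p = 0.000278 for Calcr and -0.95 ± 0.26 SE, adjusted p = 0.00575 for Myf5), at levels near or under 1 CPM. Pax7 overlapped between the strains (1.72 ± 0.394 CPM in AJ and 2.53 ± 0.407 CPM in B6; -0.56 ± 0.17 SE, adjusted p = 0.0155). Cdh15, the M-cadherin gene, differed by -0.27 ± 0.09 log2 units (SE, adjusted p = 0.0272), and its call was lost (adjusted p = 0.0689 without AJ_2 and 0.0722 without B6_3). The remaining 10 members did not pass the test, among them Myod1 (12.3 CPM in AJ and 13.1 CPM in B6, adjusted p = 0.865) and Myog (6.51 CPM in AJ and 4.21 CPM in B6, adjusted p = 0.278), the factors that switch on muscle differentiation. Within numbers 1 to 4 and numbers 5 to 8 alone, 2 members each were higher, and 3 and 1 were lower. The call of Pax7 was lost with total-count scaling, against B6_5 to B6_8 alone and in numbers 5 to 8 (highest adjusted p = 0.586). The summed markers of the whole list were 259 to 292 CPM in AJ (median 272), against 245 to 297 CPM in B6 (median 259.8).

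The acetylcholine receptor at the nerve-muscle junction is built from alpha, beta and delta subunits with an epsilon subunit in adult muscle and a gamma subunit before birth and after denervation. Its subunit genes are switched on by muscle basic helix-loop-helix factors through E-boxes, of which CAGCTG is one form. The 250 bases before the annotated starts of the genes of the gamma, alpha, epsilon and beta subunits are shown here because these genes lay higher in AJ, as did Chrnd, with CAGCTG in capitals (RefSeq, GRCm38.p6, coding strand, 5′ to 3′). The starts are those of RefSeq, and the deposited annotation begins Chrng further upstream. They come from the C57BL/6J reference, and AJ bases there were not examined. Chrng at chr1:87205561-87205810 (+ strand) holds the motif 155 and 132 bases before the start, Chrna1 at chr2:73580339-73580588 (- strand) 92 and 44 bases before, Chrne at chr11:70619195-70619444 (- strand) 138 bases before, and Chrnb1 at chr11:69795938-69796187 (- strand) holds none.
Chrng: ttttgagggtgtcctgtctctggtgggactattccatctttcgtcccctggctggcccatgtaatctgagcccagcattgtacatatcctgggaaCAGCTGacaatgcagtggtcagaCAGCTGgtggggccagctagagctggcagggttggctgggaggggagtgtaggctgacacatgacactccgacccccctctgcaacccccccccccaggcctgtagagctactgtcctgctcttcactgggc
Chrna1: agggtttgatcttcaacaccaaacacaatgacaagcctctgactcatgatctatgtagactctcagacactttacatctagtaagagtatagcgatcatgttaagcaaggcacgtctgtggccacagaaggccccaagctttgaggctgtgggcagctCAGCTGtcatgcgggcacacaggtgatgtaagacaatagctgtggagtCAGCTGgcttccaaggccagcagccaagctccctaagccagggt
Chrne: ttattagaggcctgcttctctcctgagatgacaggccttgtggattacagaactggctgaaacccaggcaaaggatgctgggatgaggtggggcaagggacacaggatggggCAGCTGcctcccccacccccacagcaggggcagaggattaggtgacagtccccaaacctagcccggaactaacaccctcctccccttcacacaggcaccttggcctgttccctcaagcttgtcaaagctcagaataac
Chrnb1: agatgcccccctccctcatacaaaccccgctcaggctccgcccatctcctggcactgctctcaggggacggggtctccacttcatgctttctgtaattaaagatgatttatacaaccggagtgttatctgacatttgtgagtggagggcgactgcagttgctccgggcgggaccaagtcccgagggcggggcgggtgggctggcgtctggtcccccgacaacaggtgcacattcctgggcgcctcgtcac
CAGCTG reads the same on both strands and stands in 13.0% of 32851 such windows, and 1.26% hold at least 2. A match is a run of letters, and nothing on binding follows from its presence or absence.

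Of the 18 tested members of the denervation and acetylcholine receptor list, 7 were higher in AJ and 2 were lower. Over all genes, 8.58% were higher and 10.1% lower. Chrng (chr1:87204657-87212694, + strand) stood at 0.347 to 0.971 CPM in AJ (median 0.767), against 0 to 0.128 CPM in B6 (median 0.0322). It was close to undetected in B6, with 12 reads in all against 206 in AJ, and its fitted difference of 3.87 ± 0.67 log2 units (SE, adjusted p = 1.18e-05) depends on the prior count. Chrna1 (chr2:73563215-73580338, - strand) stood at 20.1 to 24.9 CPM in AJ (median 22.2), against 11.1 to 16.4 CPM in B6 (median 12.9), and AJ lay wholly above B6 (0.70 ± 0.17 SE, adjusted p = 0.00193). Chrne, the adult epsilon subunit gene, was higher too (11.7 ± 1.51 CPM in AJ and 6.67 ± 0.944 CPM in B6; 0.82 ± 0.13 SE, adjusted p = 3.89e-06), as was Chrnb1, the beta subunit gene (40.9 ± 3.37 CPM in AJ and 27.2 ± 2.298 CPM in B6; 0.59 ± 0.12 SE, adjusted p = 0.00015). Neither overlapped between the strains. Chrnd, the delta subunit gene, rose by less and with overlap (3.61 ± 0.506 CPM in AJ and 2.71 ± 0.459 CPM in B6; 0.42 ± 0.11 SE, adjusted p = 0.00539). The 5 subunit genes of the muscle receptor were called in the same direction.

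Lrp4, the gene of the agrin receptor that gathers the acetylcholine receptors under the nerve ending, differed by 0.66 ± 0.14 log2 units (SE, adjusted p = 0.000362) without overlap. Myl4, an embryonic myosin light chain gene, differed by 0.55 ± 0.18 log2 units (SE, adjusted p = 0.0242), and its call was lost (adjusted p = 0.0515 without AJ_5 and 0.0601 without B6_5). Of the lower members, Gdf5, a growth factor induced by denervation, had 16.4 reads in AJ and 53.8 in B6 over all libraries (-2.11 ± 0.63 SE, adjusted p = 0.012). Hdac4, a histone deacetylase gene of the denervation response, differed by -0.40 ± 0.14 log2 units (SE, adjusted p = 0.0356), which was lost (adjusted p = 0.0538 to 0.202 without any 1 of AJ_1, AJ_3, AJ_5 and B6_5), B6_5 among them. Without B6_5, 6 members were higher and 1 lower, and in numbers 1 to 4 alone 4 were higher.

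**Figure D2:**
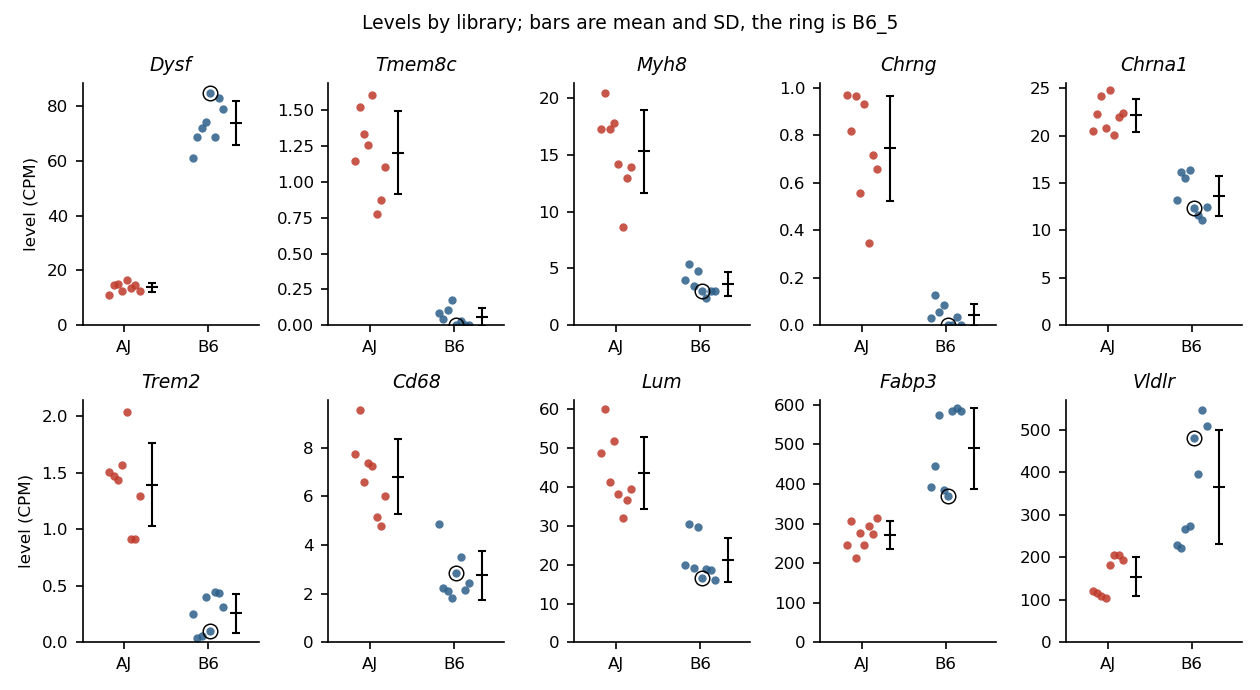
Levels of 10 genes in each of the 8 AJ and 8 B6 libraries (CPM), with AJ on the left of each panel, a bar for the mean and SD beside each strain, and a ring round B6_5. The 8 AJ libraries lie apart from the 8 B6 libraries for each gene except Cd68, and the mean difference has the same direction without B6_5 in each panel.

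Of 18 tested macrophage markers, 10 were higher and 0 lower in AJ, against 8.58% higher over all genes, and the list had a median difference of 0.83 log2 units. Trem2, a lipid-sensing receptor gene of phagocytic macrophages (chr17:48346401-48354147, + strand), stood at 0.909 to 2.04 CPM in AJ (median 1.45), against 0.0426 to 0.448 CPM in B6 (median 0.282). AJ lay wholly above B6 (2.38 ± 0.51 SE, adjusted p = 0.000307). Cd68, a lysosomal macrophage gene, stood at 4.78 to 9.56 CPM in AJ (median 6.92), against 1.84 to 4.86 CPM in B6 (median 2.34), a difference of 1.30 ± 0.28 log2 units (SE, adjusted p = 0.000288). The overlap came from B6_1, which had 4.86 CPM, and the next B6 library 3.52 CPM. Gpnmb, which marks lipid-laden macrophages, stood at 9.92 to 16.7 CPM in AJ (median 12.5), against 3.15 to 7.93 CPM in B6 (median 5.596), a difference of 1.24 ± 0.26 log2 units (SE, adjusted p = 0.000242). Cd14, a co-receptor of lipopolysaccharide, differed by 1.05 ± 0.29 log2 units (SE, adjusted p = 0.00619). The resident macrophage genes Mrc1 and Cd163 differed by 0.84 ± 0.17 log2 units (SE, adjusted p = 0.000196) and 0.67 ± 0.21 log2 units (SE, adjusted p = 0.0152). The strains did not overlap for these 4 genes.

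The sum of the 18 markers was 218 to 336 CPM in AJ (median 286), against 131 to 279 CPM in B6 (median 139). B6_1 at 279 CPM and B6_6 at 204 CPM, the libraries with the most lymphocyte markers, were the highest of B6, and the other 6 B6 libraries did not pass 159 CPM. Without B6_1 and B6_6, 13 markers were higher, and without B6_5 as well 13. In numbers 1 to 4 and numbers 5 to 8 alone, 3 and 1 passed the test, with list medians of 0.80 and 0.75 log2 units. Of the 23 tested complement genes, 4 were higher and 0 lower, against 8.58% higher over all genes. C3ar1, the receptor gene of the fragment C3a that myeloid cells carry, differed by 0.87 ± 0.26 log2 units (SE, adjusted p = 0.0113). C1ra, a protease gene of the first complement component, differed by 0.67 ± 0.14 log2 units (SE, adjusted p = 0.000254), and it has near-identical copies that were not in the count table. Cd59a and Serping1, inhibitors of the cascade, differed by 0.65 ± 0.09 log2 units (SE, adjusted p = 2.09e-08) and 0.34 ± 0.10 log2 units (SE, adjusted p = 0.00992). Of the 6 tested neutrophil markers, 0 were higher and 1 was lower, at under 1 CPM, against 10.1% lower over all genes.

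Of 18 tested fibroblast and matrix genes, 5 were higher and 0 lower in AJ, against 8.58% higher over all genes, and without B6_5 4 were higher. Timp1, an inhibitor of matrix proteases, stood at 1.67 to 3.05 CPM in AJ (median 2.86), against 0 to 1.52 CPM in B6 (median 0.379), a difference of 2.32 ± 0.51 log2 units (SE, adjusted p = 0.000458), and overlaps Syn1 on the other strand. Lum, the gene of the collagen-binding proteoglycan lumican (chr10:97565501-97572703, + strand), stood at 32.05 to 60.03 CPM in AJ (median 40.3), against 16.1 to 30.4 CPM in B6 (median 19.004). AJ lay wholly above B6 for both (1.04 ± 0.21 SE, adjusted p = 0.000172 for Lum). Pdgfra, the receptor gene that marks fibro-adipogenic progenitors, was higher (0.53 ± 0.08 SE, adjusted p = 2.38e-06), and so was Dcn, the decorin gene (0.42 ± 0.09 SE, adjusted p = 0.00036). The fifth, Col1a2, a fibrillar collagen gene, had 474 ± 90.9 CPM in AJ and 264 ± 37.3 CPM in B6 (SD, n = 8 each) with no overlap, and its call was lost (adjusted p = 0.0507 to 0.0595 without any 1 of AJ_1, AJ_2, AJ_4, B6_1, B6_3, B6_5 and B6_8, and in 14 of 33 other settings in all). Its partner Col1a1 had 359.8 ± 82.6 CPM in AJ and 200.1 ± 25.8 CPM in B6 (adjusted p = 0.0795) and did not pass. The summed markers were 3261 to 4606 CPM in AJ (median 3895), against 2603 to 3373 CPM in B6 (median 2903). In numbers 1 to 4 alone 3 members were higher.

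Of 10 tendon markers, 4 were higher and 0 lower, against 8.58% higher over all genes, and without B6_1, B6_5 and B6_6 1 was higher. Kera, the keratocan gene, differed by 1.02 ± 0.30 log2 units (SE, adjusted p = 0.011), and Tnmd, the gene of the tendon protein tenomodulin, by 0.77 ± 0.26 log2 units (SE, adjusted p = 0.0329), which was lost (adjusted p = 0.05 to 0.0633 without any 1 of AJ_2, AJ_4, AJ_8, B6_1, B6_5, B6_7 and B6_8). Tnc, the tenascin gene of tendon and repairing matrix, was higher (0.70 ± 0.18 SE, adjusted p = 0.00294), and so was Fmod, the fibromodulin gene (0.56 ± 0.20 SE, adjusted p = 0.0442), whose call was lost (adjusted p = 0.0569 to 0.0932 without any 1 library except AJ_3, AJ_5, AJ_6, AJ_7, B6_2, B6_3 and B6_4). Without any 1 of AJ_2, AJ_4, AJ_8, B6_1, B6_5, B6_7 and B6_8, 2 of the 10 were higher. The part of tendon in the dissected muscle was not tested. Of 12 endothelial markers 5 were lower and 0 higher, against 10.1% lower over all genes, and with total-count scaling 0 were called. Their sum did not overlap between the strains, at 381 to 417 CPM in AJ (median 409.9), against 452 to 498 CPM in B6 (median 460.1). Kdr, the main receptor gene for vascular endothelial growth factor, differed by -0.35 ± 0.10 log2 units (SE, adjusted p = 0.00793). Cldn5, a tight-junction gene, differed by -0.41 ± 0.14 log2 units (SE, adjusted p = 0.0331), which was lost (adjusted p = 0.0503 to 0.0832 without any 1 library except AJ_2, AJ_4, AJ_5, AJ_8, B6_5 and B6_7). Eng, the endoglin gene, was lower (-0.32 ± 0.08 SE, adjusted p = 0.00357), as were Emcn and Vwf, the genes of endomucin and von Willebrand factor (-0.32 ± 0.11 SE, adjusted p = 0.0383 for Emcn and -0.34 ± 0.12 SE, adjusted p = 0.0358 for Vwf). The call of Emcn was lost at an adjusted p of 0.0516 to 0.0806 without any 1 of AJ_2, AJ_3, AJ_4, AJ_5, AJ_7, B6_2 and B6_5, and that of Vwf at 0.0564 to 0.099 without any 1 of AJ_5, AJ_6, AJ_7, AJ_8, B6_2, B6_3, B6_4 and B6_7. Without AJ_7 or B6_2, 2 of the 12 were lower, and without AJ_3, B6_3 or B6_4, 3 were. The list's median was -0.00 with total-count scaling and -0.20 with TMM factors. Of 12 smooth muscle and pericyte markers, 2 were higher and 1 lower, against 8.58% higher and 10.1% lower over all genes. Lmod1, a leiomodin gene, led at 25.6 ± 2.41 CPM in AJ and 7.66 ± 1.05 CPM in B6 (1.74 ± 0.16 SE, adjusted p = 9.3e-13). Pdgfrb, a receptor gene of pericytes, was higher (0.21 ± 0.06 SE, adjusted p = 0.0123) and Rgs5, another pericyte gene, lower (-0.25 ± 0.09 SE, adjusted p = 0.0437), a call that was lost (adjusted p = 0.0538 to 0.101 without any 1 library except AJ_7, AJ_8, B6_1, B6_2 and B6_6).

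Of 25 tested members of the beta-oxidation list, 11 were lower and 0 higher in AJ, against 10.1% lower over all genes, and with total-count scaling 1 was lower and 1 higher. Fabp3, the gene of the heart and muscle fatty acid-binding protein (chr4:130308595-130315463, + strand), stood at 214 to 314 CPM in AJ (median 275), against 369 to 591 CPM in B6 (median 510.4). AJ lay wholly below B6 (-0.86 ± 0.14 SE, adjusted p = 5.54e-06), and the value was -0.86 with the reads of its near-identical copy added. Fabp3 also overlaps other genes. Slc25a20, which encodes the carnitine-acylcarnitine carrier of the mitochondrial membrane, stood at 44.4 to 53.1 CPM in AJ (median 49.4), against 58.02 to 74.7 CPM in B6 (median 68.8), a difference of -0.45 ± 0.07 log2 units (SE, adjusted p = 3.2e-06). Eci1, an isomerase gene for unsaturated fatty acids, differed by -0.42 ± 0.08 log2 units (SE, adjusted p = 6.19e-05). For both, AJ lay wholly below B6. Hadhb, of the mitochondrial trifunctional protein, and Acadm, the medium-chain dehydrogenase gene, were lower with overlap (-0.40 ± 0.09 SE, adjusted p = 0.000373 for Hadhb and -0.33 ± 0.09 SE, adjusted p = 0.00424 for Acadm). Acot2, a mitochondrial acyl-CoA thioesterase gene, differed by -0.70 ± 0.22 log2 units (SE, adjusted p = 0.0145) and by -0.72 with the reads of its copy Acot1 added. These differences were under 1 log2 unit, and the calls depended on the scaling and on the number of libraries. The list's median was -0.04 with total-count scaling and -0.21 with TMM factors, and each number group alone called 3 lower.

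Of 19 tested genes of the PPAR and fasting response, 4 were lower and 0 higher, against 10.1% lower over all genes. With total-count scaling 1 was lower. Vldlr, the very-low-density lipoprotein receptor gene (chr19:27216484-27254231, + strand), stood at 105 to 206 CPM in AJ (median 151), against 221 to 547 CPM in B6 (median 335). AJ lay wholly below B6 (-1.24 ± 0.21 SE, adjusted p = 8.18e-06). Within the strains, its level followed the library numbers: AJ held 105 to 121 CPM in numbers 1 to 4 and 181 to 206 CPM in numbers 5 to 8, and B6 held 221 to 274 and 395 to 547 CPM. AJ was lower in both number groups. Plin5, a lipid-droplet gene of oxidative tissue, and Ppara, the fatty acid-sensing receptor gene, differed by -0.62 ± 0.18 log2 units (SE, adjusted p = 0.00769) and -0.56 ± 0.15 log2 units (SE, adjusted p = 0.00557). The fourth lower gene was Acot2, described with the beta-oxidation list.

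Of 29 insulin signalling genes, 4 were lower and 0 higher, near the 10.1% lower over all genes. Tbc1d4 is the gene of AS160, which regulates the movement of the glucose transporter GLUT4 to the surface. Tbc1d4 stood at 28.9 to 42.4 CPM in AJ (median 38.3), against 50.7 to 86.9 CPM in B6 (median 61.8). AJ lay wholly below B6 (-0.77 ± 0.16 SE, adjusted p = 0.000253). Akt2, the insulin-responsive Akt gene of muscle, was lower without overlap (-0.36 ± 0.06 SE, adjusted p = 3.66e-06). Gsk3a, a kinase gene that restrains glycogen synthase, was lower by less (-0.14 ± 0.05 SE, adjusted p = 0.0277), and its call was lost (adjusted p = 0.0531 to 0.0717 without any 1 of AJ_2, AJ_5, B6_3, B6_4, B6_7 and B6_8). Of 17 glycogen genes, 4 were lower and 0 higher, against 10.1% lower over all genes. Ugp2, which makes UDP-glucose for glycogen, differed by -0.46 ± 0.10 log2 units (SE, adjusted p = 0.000525) without overlap, and so did Gaa, the lysosomal glucosidase gene (-0.31 ± 0.06 SE, adjusted p = 0.000131). Gyg, of the glycogen primer glycogenin, was lower (-0.18 ± 0.06 SE, adjusted p = 0.0177), a call that was lost (adjusted p = 0.0722 without B6_7). Phkg1, the muscle phosphorylase kinase gene, differed by -0.38 ± 0.13 log2 units (SE, adjusted p = 0.0267), which was lost (adjusted p = 0.05 to 0.0551 without any 1 of AJ_1, AJ_2, B6_2 and B6_7). Without B6_7 alone, 2 of the glycogen genes were lower. With total-count scaling, 1 insulin signalling gene was lower and 2 were higher, and 0 glycogen genes were lower and 2 higher. Of 26 genes of glucose uptake and glycolysis, 2 were higher, near the 8.58% over all genes, and 0 lower, against 10.1%. Gapdh had 744 ± 63.6 CPM in AJ and 447 ± 64.1 CPM in B6 (0.73 ± 0.09 SE, adjusted p = 1.17e-08). Eno1 had 102 ± 6.97 CPM in AJ and 72.3 ± 7.78 CPM in B6 (0.49 ± 0.11 SE, adjusted p = 0.000797). With the reads of their near-identical copies added, the values were 0.73 and 0.49. Slc2a4, the GLUT4 gene, had 356 CPM in AJ and 359 CPM in B6 (adjusted p = 0.961).

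Of 21 genes of branched-chain amino acid breakdown, 6 were lower and 2 higher, against 10.1% lower and 8.58% higher over all genes. Ivd, the isovaleryl-CoA dehydrogenase gene of leucine breakdown, stood at 58.97 to 75.9 CPM in AJ (median 66.4), against 94.997 to 127 CPM in B6 (median 106), a difference of -0.73 ± 0.15 log2 units (SE, adjusted p = 0.000153). Mccc2, the next enzyme's beta subunit gene, was lower (-0.59 ± 0.10 SE, adjusted p = 1.1e-05), and Bcat2, the mitochondrial aminotransferase gene of the first step, was lower as well (-0.50 ± 0.16 SE, adjusted p = 0.0194). Auh, which follows in the same route, was higher (0.47 ± 0.07 SE, adjusted p = 5.84e-07), and Bcat1, the cytosolic aminotransferase gene, was higher at under 1 CPM on average (1.36 ± 0.32 SE, adjusted p = 0.00128). Total-count scaling left 2 lower and 3 higher, and numbers 5 to 8 alone left 0 lower. Of 20 genes of fatty acid and triglyceride synthesis, 2 were higher and 2 lower, near the 8.58% higher and 10.1% lower over all genes. Srebf1, the lipogenic transcription factor gene, was higher (0.58 ± 0.16 SE, adjusted p = 0.00726), and so was Scd2, a desaturase gene (0.65 ± 0.22 SE, adjusted p = 0.0321, and 0.44 with the reads of Scd1 added), whose call was lost (adjusted p = 0.053 to 0.0849 without any 1 of AJ_1, AJ_2, AJ_3, B6_1, B6_3, B6_7 and B6_8). Lpin1, a phosphatidate phosphatase gene, was lower (-0.45 ± 0.12 SE, adjusted p = 0.00386), and Acacb, which makes the malonyl-CoA that restrains fat import into mitochondria, was lower as well (-0.30 ± 0.09 SE, adjusted p = 0.0107).

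**Figure D3:**
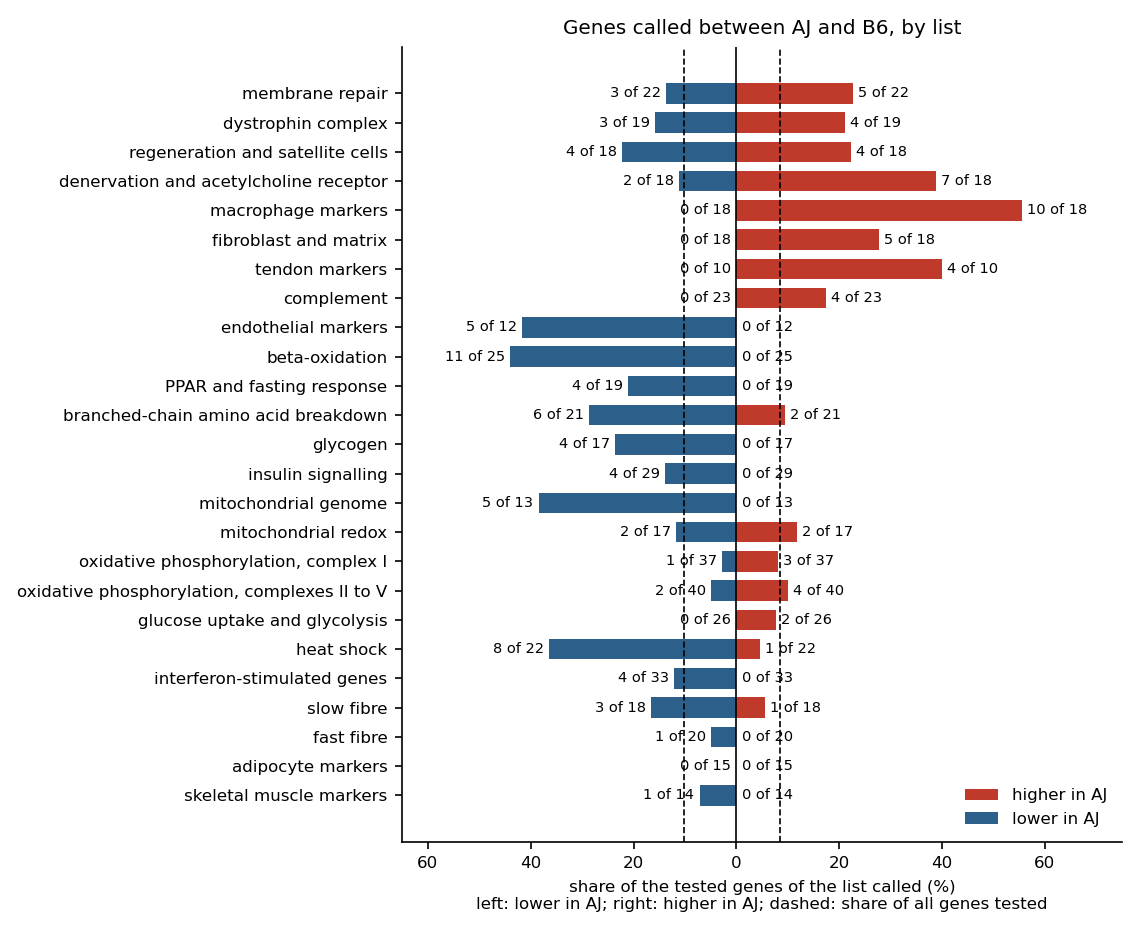
Share of the tested members of each gene list called higher or lower in AJ than in B6 (percent), with the list sizes beside the names. The dashed lines mark the shares over all 16682 tested genes, 8.58% higher and 10.1% lower, and the lists were chosen with earlier results of these data known.

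Of the 13 tested genes of the mitochondrial genome list, 5 were lower in AJ and 0 higher, against 10.1% lower over all genes. The protein-coding mt-Nd3 stood at 236 to 350.2 CPM in AJ (median 269.7), against 358 to 574 CPM in B6 (median 432), a difference of -0.71 ± 0.11 log2 units (SE, adjusted p = 7.46e-07). mt-Nd6, mt-Nd5 and mt-Cytb were lower with overlap. Their differences were -0.61 ± 0.10 log2 units (SE, adjusted p = 8.26e-06) for mt-Nd6, -0.58 ± 0.10 log2 units (SE, adjusted p = 1.29e-05) for mt-Nd5 and -0.37 ± 0.08 log2 units (SE, adjusted p = 0.000676) for mt-Cytb. The fifth was mt-Nd4 (-0.34 ± 0.11 SE, adjusted p = 0.0283), whose call was lost (adjusted p = 0.0501 to 0.0989 without any 1 of AJ_1, AJ_2, B6_4, B6_5 and B6_7), and without B6_1 alone 9 of the 13 were lower. These genes encode subunits of complexes I and III of the respiratory chain. mt-Nd5 and mt-Nd6 overlap on opposite strands, and with the reads of their near-identical copies added the values were -0.47 for mt-Nd3 and -0.58 for mt-Nd5. The share of counts from the whole mitochondrial genome, ribosomal RNAs included, was 10.6 ± 0.730% in AJ and 11.9 ± 1.29% in B6 (SD, n = 8 each). A 2-sided exact permutation test of this share gave p = 0.0270 (0.108 adjusted over the 4 library values tested). The share therefore does not describe the 13 listed genes alone. Those summed to 83257 to 104829 CPM in AJ (median 95687), against 80332 to 137937 CPM in B6 (median 115102). The mitochondrial ribosomal RNAs mt-Rnr1 and mt-Rnr2 were called with differences of -2.22 and -2.36, but B6_5 held 86982 CPM of mt-Rnr2. Without it the differences were -0.26 for mt-Rnr1 (adjusted p = 0.694) and -0.53 for mt-Rnr2 (adjusted p = 0.0175).

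Nuclear genes of oxidative phosphorylation were called higher about as often as all genes, and lower less often. Of 37 complex I genes 3 were higher and 1 lower, and of 40 genes of complexes II to V 4 were higher and 2 lower, against 8.58% higher and 10.1% lower over all genes. Ndufc2, a complex I subunit gene, was higher (0.51 ± 0.09 SE, adjusted p = 5.37e-06), and so was Ndufa12 (0.29 ± 0.06 SE, adjusted p = 0.000387), while Ndufa3 was lower (-0.35 ± 0.08 SE, adjusted p = 0.000401). Cox6a2, the muscle form of a cytochrome oxidase subunit gene, stood at 241 to 269.9 CPM in AJ (median 248), against 286 to 387 CPM in B6 (median 335), a difference of -0.41 ± 0.06 log2 units (SE, adjusted p = 6.82e-07), and Sdha, of complex II, was lower (-0.19 ± 0.06 SE, adjusted p = 0.0142). Atp5f1, an ATP synthase gene, was higher (0.28 ± 0.06 SE, adjusted p = 0.000655), and so were Sdhc, of complex II (0.23 ± 0.06 SE, adjusted p = 0.0065), Uqcrb, of complex III (0.26 ± 0.07 SE, adjusted p = 0.00721), and Ndufs3, of complex I (0.20 ± 0.06 SE, adjusted p = 0.0197), whose call was lost (adjusted p = 0.0771 without B6_5). With total-count scaling 0 genes of either list were lower, and 3 of complex I and 5 of complexes II to V were higher. The fourth higher gene of complexes II to V, Atp5g2, is described with the genes that have copies. Cox6a2, Ndufa3 and Sdha overlap genes of the other strand, and Atp5f1 had 0.28 with the reads of its near-identical copy added.

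Of 17 mitochondrial redox genes, 2 were higher and 2 lower, against 8.58% higher and 10.1% lower over all genes. Nnt (chr13:119335448-119408997, - strand) stood at 131 to 164 CPM in AJ (median 142), against 40.05 to 71.1 CPM in B6 (median 48.9). AJ lay wholly above B6 (1.55 ± 0.12 SE, adjusted p = 1.33e-16). Me3, the mitochondrial NADP-dependent malic enzyme gene, was higher too (77.5 ± 3.699 CPM in AJ and 47.9 ± 6.87 CPM in B6; 0.69 ± 0.07 SE, adjusted p = 8.19e-12). Glrx2, a mitochondrial glutaredoxin gene with a near-identical copy, was lower without overlap (13.1 ± 0.674 CPM in AJ and 21.2 ± 1.77 CPM in B6; -0.69 ± 0.06 SE, adjusted p = 6.41e-15). Idh2, the mitochondrial NADP-dependent isocitrate dehydrogenase gene, was lower with overlap (-0.42 ± 0.10 SE, adjusted p = 0.00188). Nnt, Me3 and Idh2 each encode an enzyme that can make mitochondrial NADPH.

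Of 22 heat shock genes, most of them chaperones, 8 were lower and 1 was higher in AJ, against 8.58% higher and 10.1% lower over all genes. With total-count scaling 1 gene was lower and 1 higher, and numbers 1 to 4 alone left 1 lower. Hsph1, a co-chaperone gene of HSP70, stood at 38.2 to 53.6 CPM in AJ (median 46.3), against 61.3 to 84.1 CPM in B6 (median 76.3), a difference of -0.70 ± 0.14 log2 units (SE, adjusted p = 0.000117). Hspb6 and Hspb8, small heat shock proteins of muscle, were lower (-0.54 ± 0.12 SE, adjusted p = 0.000703 for Hspb6 and -0.48 ± 0.14 SE, adjusted p = 0.0086 for Hspb8). Bag3, which pairs with Hspb8 in clearing damaged filaments, was lower too (-0.37 ± 0.11 SE, adjusted p = 0.0128), as was Hsf1, the transcription factor of the heat shock response (-0.35 ± 0.07 SE, adjusted p = 0.000238). The strains did not overlap for these 4 genes. Cryab, the alpha-B-crystallin gene, was lower (-0.58 ± 0.20 SE, adjusted p = 0.0299), and its call was lost (adjusted p = 0.0541 to 0.0746 without any 1 of AJ_5, AJ_6, AJ_7, AJ_8 and B6_3). Hspb3 was the 1 higher gene (0.61 ± 0.20 SE, adjusted p = 0.0277), and its call was lost (adjusted p = 0.0505 to 0.0676 without any 1 of AJ_3, AJ_5 and B6_5), with B6_5 the lowest B6 library at 6.24 CPM.

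Of 20 fast-fibre genes 0 were higher and 1 was lower: Actn3, the gene of the fast-fibre Z-disc protein alpha-actinin-3, had 5022 ± 459 CPM in AJ and 6983 ± 1236 CPM in B6 (SD, n = 8 each; -0.48 ± 0.11 SE, adjusted p = 0.00121). Of 18 slow-fibre genes 1 was higher and 3 were lower, against 8.58% higher and 10.1% lower over all genes, and with total-count scaling 2 were higher and 1 lower. Ankrd2, a stretch-responsive gene of slow fibres, stood at 36.2 to 57.7 CPM in AJ (median 44.5), against 62.1 to 139 CPM in B6 (median 95.3), a difference of -1.08 ± 0.35 log2 units (SE, adjusted p = 0.0241), and its call was lost (adjusted p = 0.05 without B6_6). Myl3, the slow and cardiac light chain gene, was lower (-0.80 ± 0.20 SE, adjusted p = 0.002), as was Casq2, the calsequestrin gene of slow fibres and heart (-0.79 ± 0.24 SE, adjusted p = 0.0152), a call that was lost (adjusted p = 0.0519 without B6_3), and Myh7b, a slow-type myosin gene that hosts a microRNA, was higher (0.71 ± 0.21 SE, adjusted p = 0.0125). Myh7, the slow myosin gene, had 649 to 1501 CPM in AJ (median 793), against 277 to 2044 CPM in B6 (median 911). The ranges overlapped, and Myh7 did not pass the test (adjusted p = 0.903).

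Of 33 interferon-stimulated genes 4 were lower and 0 higher, near the 10.1% lower over all genes. Rsad2, an antiviral enzyme gene, stood at 0.962 to 2.12 CPM in AJ (median 1.44), against 3.91 to 7.78 CPM in B6 (median 4.72), and Ifit3, which restrains viral RNA, at 0.989 to 1.91 CPM in AJ (median 1.52), against 2.25 to 5.198 CPM in B6 (median 3.61). Both lay wholly below B6 (-1.75 ± 0.37 SE, adjusted p = 0.000294 for Rsad2 and -1.30 ± 0.26 SE, adjusted p = 0.000131 for Ifit3), and the value of Ifit3 was -0.69 with the reads of its copy Ifit3b added. Irf7, a transcription factor gene of the interferon response, and Xaf1 were lower (-0.73 ± 0.25 SE, adjusted p = 0.0287 for Irf7 and -0.46 ± 0.17 SE, adjusted p = 0.0495 for Xaf1). Both calls were lost, that of Irf7 at an adjusted p of 0.0503 to 0.18 without any 1 of AJ_2, AJ_6 and B6_1 and that of Xaf1 at 0.0508 to 0.147 without any 1 library except AJ_3, B6_6 and B6_8. Without AJ_6 or B6_1 alone, 2 of the 33 were lower. In the Ifi200 cluster on chromosome 1, whose products sense DNA, 2 of 10 were higher and 5 lower. Over all genes, 8.58% were higher and 10.1% lower. Ifi202b stood at 2.86 to 4.17 CPM in AJ (median 3.47), against 0 to 0.307 CPM in B6 (median 0.0354), with 14 reads over all B6 libraries. Pydc3 stood at 0 to 0.141 CPM in AJ (median 0.0645), against 0.23 to 3.93 CPM in B6 (median 0.608), a difference of -3.75 ± 0.62 log2 units (SE, adjusted p = 4.36e-06). Pyhin1 differed by -2.07 ± 0.72 log2 units (SE, adjusted p = 0.0338), which was lost (adjusted p = 0.0507 to 0.293 without any 1 of AJ_2, AJ_3, AJ_7, AJ_8, B6_1 and B6_6), Ifi203 by -0.56 ± 0.19 log2 units (SE, adjusted p = 0.0318), which was lost (adjusted p = 0.0537 to 0.166 without any 1 of AJ_1, AJ_2, AJ_4 and B6_1), and Mnda by -1.62 ± 0.25 log2 units (SE, adjusted p = 1e-06), a value of 0.25 once the reads of its copies were added. The fifth lower gene, Mndal, is described with the genes that have copies, and without AJ_2 or B6_1 alone 3 of the 10 were lower. Ifi205 was called higher (0.83 ± 0.24 SE, adjusted p = 0.0103), but the value was -0.31 with the reads of its copies added. Of 24 antigen presentation genes, 1 was higher and 4 were lower, against the same 8.58% and 10.1% over all genes. H2-T22 and H2-K1, class I genes of the histocompatibility complex, were lower (-2.65 ± 0.20 SE, adjusted p = 3.5e-16 for H2-T22 and -1.65 ± 0.26 SE, adjusted p = 2.28e-06 for H2-K1), but with the reads of their near copies added the values were 0.71 for H2-T22 with H2-T10 and -1.02 for H2-K1 with H2-D1. H2-D1 itself differed by -0.61 ± 0.19 log2 units (SE, adjusted p = 0.0152), which was lost (adjusted p = 0.0801 without B6_1), and H2-Q7 by -1.61 ± 0.45 log2 units (SE, adjusted p = 0.00736), with -1.17 once the reads of its copies were added, and the call of H2-Q7 was lost (adjusted p = 0.0754 without B6_1). H2-T24 was higher (0.94 ± 0.17 SE, adjusted p = 3e-05). Without B6_1 alone, 2 of the 24 were lower. These class I genes vary in sequence and copies between strains, and how well AJ reads of them map to the reference was not tested.

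Lymphocyte markers were lower in AJ for 12 of 15 and higher for 0, against 10.1% lower and 8.58% higher over all genes. This rested on B6_1 and B6_6. Without B6_1 alone 6 of the 15 were lower. Without both libraries 0 of the 15 were lower and 1 was higher, against 9.43% lower and 7.93% higher over all genes. The list median was then 0.12 log2 units. Summed markers were 71.7 to 116 CPM in AJ against 19.2 to 59.9 CPM in the remaining 6 B6 libraries. With all 16 libraries, 1 of the 15 had a difference above 0, so the sums do not speak for the list as a whole. The immunoglobulin genes among the largest differences went with them: Ighg2c, Ighg2b, Ighd and Igkc had 4, 13, 40 and 120 reads over the AJ libraries, against 48.1, 47.7, 29.8 and 105 CPM in B6_1. Without B6_1 alone, Ighg2b and Igkc no longer passed (adjusted p = 0.274 and 0.21). Without B6_1 and B6_6, the differences were -4.63 for Ighg2c (adjusted p = 0.0222), -1.42 for Ighg2b (adjusted p = 0.755), -0.82 for Ighd (adjusted p = 0.775) and 0.64 for Igkc (adjusted p = 0.851). Ighg2c is known from the B6 form of the heavy-chain locus, and whether AJ holds it was not examined.

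Of 19 tested genes with variants known in inbred strains, 7 were higher and 1, Dysf, lower, against 8.58% higher and 10.1% lower over all genes. Besides Nnt and Ifi202b, the higher ones were Glo1, Btbd9, Wdfy1, Alad and H2-Ea-ps. Glo1, the glyoxalase gene in a segment that is duplicated in A/J, stood at 256 to 293 CPM in AJ (median 275), against 83.6 to 98.7 CPM in B6 (median 88.2), a difference of 1.62 ± 0.07 log2 units (SE, adjusted p = 1.37e-27), and Btbd9, beside it, at 15.4 to 20.9 CPM in AJ (median 17.95), against 11.2 to 15.05 CPM in B6 (median 13.8), a difference of 0.40 ± 0.07 log2 units (SE, adjusted p = 4.87e-06). Glo1 has a near-identical copy in the annotation that was not in the count table. Wdfy1, an endosomal adaptor gene, differed by 1.73 ± 0.08 log2 units (SE, adjusted p = 3.5e-25) and Alad, of heme synthesis, by 1.47 ± 0.13 log2 units (SE, adjusted p = 3.31e-14). H2-Ea-ps, a class II alpha chain gene whose promoter is deleted in B6, had 1286 reads in AJ and 7 in B6. For these 5 genes the strains did not overlap. The other 11 did not pass. Hc, the complement C5 gene that is frame-shifted in A/J, had 3.76 ± 4.98 CPM in AJ and 5.15 ± 4.28 CPM in B6 (adjusted p = 0.81). Cox7a2l, Cdh23 and Entpd4 had 75.1 CPM in AJ and 75.8 CPM in B6, 8.64 CPM in AJ and 8.35 CPM in B6 and 48.7 CPM in AJ and 56.98 CPM in B6 (adjusted p = 0.908, 0.855 and 0.0706). Mx1, Mx2, Disc1, Gabra2, Naip5, Naip6 and Nlrp12 were under 1 CPM on average in both strains. Entpd4 passed without B6_5 (adjusted p = 0.0435) and Gabra2 without B6_7 or B6_8 (adjusted p = 0.0403 and 0.0496).

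The largest differences outside these lists were taken from genes with at least 5 CPM in a strain and no near-identical copy. Highest in AJ was Pianp, a neural membrane protein gene, at 6.26 to 7.75 CPM in AJ (median 6.79), against 0.205 to 0.509 CPM in B6 (median 0.325), a difference of 4.27 ± 0.33 log2 units (SE, adjusted p = 4.5e-16). Osbpl3, an oxysterol-binding protein gene, stood at 32.1 to 45.6 CPM in AJ (median 36.4), against 2.89 to 4.87 CPM in B6 (median 3.74), a difference of 3.30 ± 0.18 log2 units (SE, adjusted p = 2.51e-22). Kbtbd12, a Kelch-repeat gene of muscle (chr6:88545114-88637950, - strand), stood at 164 to 190.0 CPM in AJ (median 183), against 27.6 to 36.9 CPM in B6 (median 32.8), a difference of 2.44 ± 0.09 log2 units (SE, adjusted p = 1.21e-30). The strains did not overlap for these 3 genes. Abhd1, a hydrolase gene that overlaps Preb, was higher by 3.10, Rtkn2 by 2.93, Ush1c by 2.52 and Baiap2l1 by 2.18. Park2, the gene of the mitophagy ligase parkin, stood at 23.6 to 28.9 CPM in AJ (median 26.3), against 5.45 to 11.4 CPM in B6 (median 6.801), a difference of 1.90 ± 0.10 log2 units (SE, adjusted p = 6.33e-23), and Alpk1, a kinase gene of innate sensing, was higher (1.86 ± 0.15 SE, adjusted p = 7.11e-15). Mettl21e, a muscle methyltransferase gene, had 20.7 to 41.3 CPM in AJ numbers 1 to 4 and 7.37 to 12.7 in AJ numbers 5 to 8, against 2.07 to 5.03 and 1.25 to 2.97 CPM in B6 (2.76 ± 0.40 SE, adjusted p = 2.44e-07 over all). Mt2, a metallothionein gene, Socs3, the feedback inhibitor of cytokine signalling, and Hal, the histidine ammonia-lyase gene, were higher (2.33 ± 0.68 SE, adjusted p = 0.0103 for Mt2, 1.80 ± 0.48 SE, adjusted p = 0.00454 for Socs3 and 1.80 ± 0.60 SE, adjusted p = 0.0278 for Hal). The call of Hal was lost at an adjusted p of 0.0564 to 0.0585 without any 1 of B6_3, B6_4 and B6_7.

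Lowest in AJ after the immunoglobulin genes was Pttg1, the securin gene that holds sister chromatids (chr11:43420250-43426251, - strand). It stood at 0.529 to 0.98 CPM in AJ (median 0.726), against 23.7 to 31.3 CPM in B6 (median 28.3), a difference of -5.26 ± 0.24 log2 units (SE, adjusted p = 1.24e-25). Rab6b, a vesicle transport gene, stood at 0.403 to 1.65 CPM in AJ (median 0.531), against 11.2 to 16.3 CPM in B6 (median 12.8), a difference of -4.22 ± 0.37 log2 units (SE, adjusted p = 5.62e-14), Nxpe4 at 0.239 to 0.626 CPM in AJ (median 0.429), against 4.22 to 7.17 CPM in B6 (median 5.06), a difference of -3.55 ± 0.24 log2 units (SE, adjusted p = 2.84e-18) and Ankrd6 was lower (-2.52 ± 0.20 SE, adjusted p = 1.37e-15). The strains did not overlap for these genes. Actc1, the cardiac actin gene that marks immature fibres in skeletal muscle, split with the library numbers in B6: its means were 40.6 CPM in AJ numbers 1 to 4 and 23.8 CPM in AJ numbers 5 to 8, against 337 and 40.3 CPM in B6. The difference of -2.55 ± 0.54 log2 units (SE, adjusted p = 0.000282) over all libraries was -3.05 in numbers 1 to 4 (adjusted p = 0.0024) and -0.76 in numbers 5 to 8 (adjusted p = 0.596). The test of the difference between these values did not pass (-2.29 ± 0.89 SE, adjusted p = 1.00). Cyp3a11, a liver cytochrome gene, was lower (-3.30 ± 1.15 SE, adjusted p = 0.0346), and its call was lost (adjusted p = 0.0558 to 0.668 without any 1 of AJ_1, AJ_3, AJ_4, AJ_5, AJ_8 and B6_6). Of 16 hepatocyte markers it was the 1 called, against 10.1% lower over all genes. The summed markers were 52.7 to 2052 CPM in AJ (median 392), against 94.5 to 3235 CPM in B6 (median 1080.3). Their part in the result was not tested.

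The calls of 3 more of the lowest genes rested on B6_5. Rpph1 and Rmrp, RNA components of RNase P and RNase MRP, and Lars2, the mitochondrial leucyl-tRNA synthetase gene, differed by -3.76, -3.16 and -2.40 log2 units. B6_5 held 40.2 CPM of Rpph1, 60.7 CPM of Rmrp and 164394 CPM of Lars2. Without it the differences were 0.55 (adjusted p = 0.44), -0.40 (adjusted p = 0.732) and 0.13 (adjusted p = 0.846).

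Of the genes with near-identical copies, those with the largest differences are given alone and with the reads of the copies added. The difference of Atp5g2, an ATP synthase subunit gene, was 3.86 alone and -0.02 with its copies. Myh6, the cardiac alpha-myosin gene, was at 3.32 alone and -0.03 together with its neighbour Myh7, of which it is a near copy. H2-T10 had 4.37 alone and 0.71 with copies, and Sgip1 2.07 and 1.34. Of the lower genes, Mndal had -7.73 alone and -0.11 with copies, Gvin1 -6.90 and -1.40, and Trim12a -5.82 and -0.42. Erdr1 had -3.62, and its copy was not in the count table. Single values for these genes are uncertain.

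The brown fat gene Ucp1, which uncouples mitochondrial respiration, had 809 reads over the 8 AJ libraries (13.5 CPM in AJ_1 at most) and 3 over the 8 B6 libraries. Its library levels were 0.187 to 13.5 CPM in AJ (median 0.615), against 0 to 0.0565 CPM in B6 (median 0). Of 12 brown adipocyte markers 1 was higher and 2 lower, against 8.58% higher and 10.1% lower over all genes. The lower ones were Zic1 and Prdm16, transcription factor genes of brown fat and its precursors (-1.64 ± 0.28 SE, adjusted p = 1.06e-05 for Zic1 and -0.71 ± 0.14 SE, adjusted p = 0.000105 for Prdm16). The 12 markers summed to 238 to 287 CPM in AJ (median 275), against 232 to 311 CPM in B6 (median 269.6). Of 15 adipocyte markers 0 were called in either direction, with sums of 1696 to 2634 CPM in AJ (median 1979), against 1756 to 4079 CPM in B6 (median 2690.0). Ucp1 was called with all 16 libraries, while most markers of the list did not pass the test. The call of Ucp1 was lost in 3 of 32 other settings (highest adjusted p = 0.343). These were numbers 5 to 8 alone, B6_5 to B6_8 alone, and limma on variance-stabilised values.

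Along the genome, called genes were spread widely. On the autosomes and X, the share of tested genes called was 12.4% on X to 22.7% on 17, and 1 of 9 genes on Y was called (11.1%). Among 252 windows of 10 Mb with at least 15 tested genes the median share was 17.6%. The highest shares were 46.7% for the mitochondrial genome (7 of 15 genes), 44% on chromosome 12 from 10 to 20 Mb (11 of 25 genes) and 43.3% on chromosome 12 from 20 to 30 Mb (13 of 30 genes). Without B6_5, 5 genes of the mitochondrial genome were called, and 11 and 13 genes in these chromosome 12 windows. In the first of the chromosome 12 windows, Smc6, a chromosome maintenance gene, was higher (0.87 ± 0.06 SE, adjusted p = 3.93e-17), and E2f6, a repressor of the cell cycle, lower (-0.68 ± 0.09 SE, adjusted p = 2.04e-08). Kcnf1, a potassium channel gene, stood at 0.132 to 0.654 CPM in AJ (median 0.274), against 1.67 to 8.71 CPM in B6 (median 4.46), a difference of -3.98 ± 0.67 log2 units (SE, adjusted p = 6.49e-06), Ntsr2 and Greb1 were higher by 1.89 and 1.66, and Kcns3 was lower (-0.86). The call of Kcns3 was lost at an adjusted p of 0.0501 to 0.0837 without any 1 library except AJ_1, AJ_2, AJ_3, B6_2, B6_5, B6_7 and B6_8. In the second, Rsad2 of the interferon list, Cpsf3 (-0.63) and Cys1 (-0.56) were lower, and Sox11 (2.18), Asap2 (0.63) and Klf11 (0.54) higher, and the call of Cys1 was lost at an adjusted p of 0.0581 without B6_7. Windows were ranked after the calls were known, so the rank is a description.

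Set among the 8 strains, AJ stood outside the range of the means of the other 6 strains, with B6 inside it, for 33.3% of called genes, against 18.5% of all tested genes. B6 alone stood outside for 21.9% of called genes (12.3% of all tested), both for 7.95% (8.13%) and neither for 36.9% (61.04%). Genes were called for a difference between AJ and B6, so higher shares with AJ or B6 alone outside follow in part from that choice. Several genes described above had their extreme in AJ. Tmem8c averaged 1.20 CPM in AJ, against 0.0906 to 0.27 CPM in the other 6 strains, and Chrng 0.745 CPM, against 0.0182 to 0.156 CPM. Trem2, Cd68, Chrna1, Lum, Glo1, Osbpl3, Wdfy1 and Alad also had their highest mean in AJ. For Glo1, Osbpl3, Wdfy1 and Alad the lowest mean of the 8 strains was in B6. Wdfy1 averaged 27.7 CPM in AJ and 8.42 CPM in B6, against 21.6 to 25.7 CPM in the other 6, so B6 stood further apart. Alad averaged 31.3 CPM in AJ and 11.3 CPM in B6, against 12.2 to 24.1 CPM in the other 6. Dysf averaged 13.8 CPM in AJ and 73.9 CPM in B6, against 108 to 143 CPM in the others, so B6 was itself the lowest of the remaining strains. For other genes B6 was the strain apart. Nnt averaged 49.5 CPM in B6 against 108 to 188 CPM in the other 6, Kbtbd12 33.3 CPM against 147 to 191, Pttg1 28.1 CPM against 0.339 to 0.962 and Rab6b 13.3 CPM against 0.166 to 0.675. Ucp1, with a mean of 3.36 CPM in AJ, was within the 0.146 to 114 CPM of the other strains. These are descriptions of strain means, with no test.

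**Figure D4:**
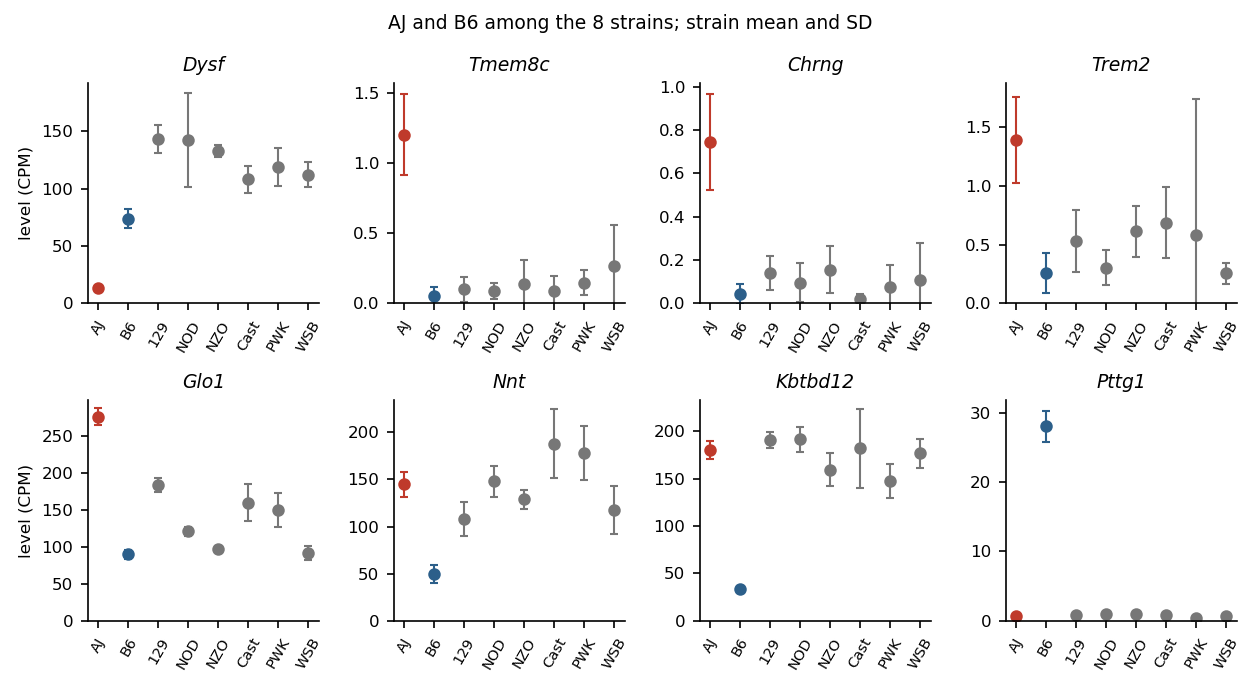
Mean level of 8 genes in each of the 8 strains (CPM, with SD over 7 or 8 libraries), AJ first and B6 second. Tmem8c, Chrng, Trem2 and Glo1 are highest in AJ, Dysf is lowest in AJ, and B6 stands apart for Nnt, Kbtbd12 and Pttg1.

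Leaving out B6_5 kept 2715 of the 3118 calls, lost 403 and gained 277. Among the 3118 genes the difference turned its sign for 16 and moved by more than 1 log2 unit for 33, and the median move was 0.034 log2 units. The leading genes of the regeneration, receptor, macrophage and membrane repair lists kept their calls. The difference without B6_5 was -2.39 for Dysf, 2.03 for Myh8, 0.68 for Chrna1, 2.30 for Trem2, -1.38 for Nos1, -0.91 for Fabp3 and -1.18 for Vldlr. By list, 9 macrophage and 4 matrix genes were higher without B6_5, and 12 beta-oxidation, 10 heat shock and 6 branched-chain amino acid genes were lower.

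**Figure D5:**
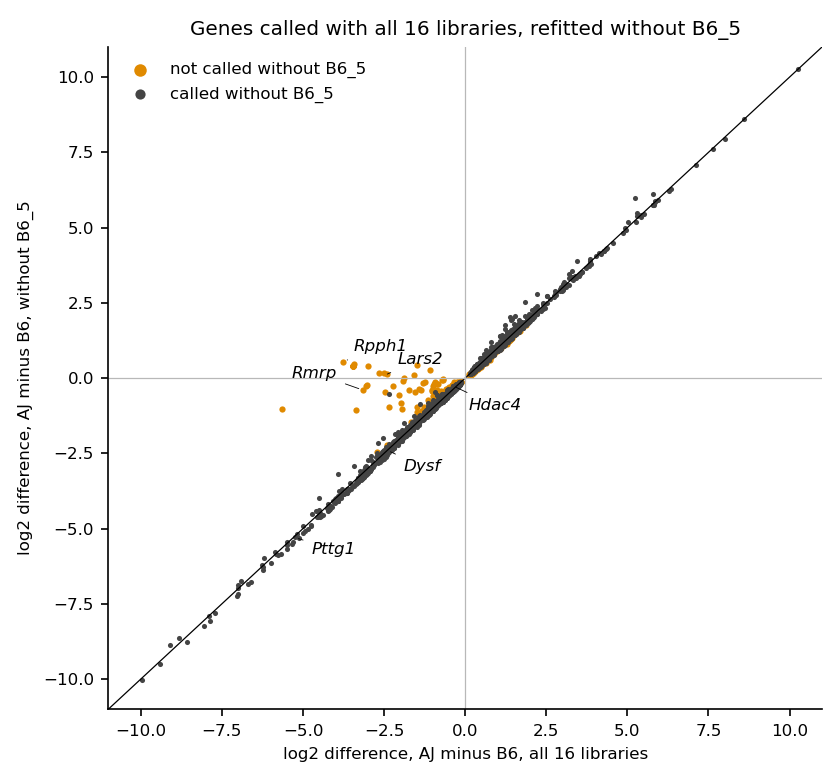
Difference AJ minus B6 (log2 units) of each called gene with the 16 libraries (x axis) and without B6_5 (y axis). Orange points were no longer called. Most genes lie on the diagonal, 33 moved by more than 1 log2 unit, and Rpph1, Rmrp, Lars2, mt-Rnr1 and mt-Rnr2 leave it towards 0 or across it.

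Of 19 NRF2 target and metallothionein genes 2 were higher and 2 lower, against 8.58% higher and 10.1% lower over all genes: Mt2 and Mt1 against Cat, the catalase gene (-0.55 ± 0.16 SE, adjusted p = 0.0115), and Nqo1 (-0.32 ± 0.10 SE, adjusted p = 0.015, a call lost at adjusted p = 0.0544 without B6_7). Mt1 was higher (1.63 ± 0.59 SE, adjusted p = 0.0439), and its call was lost (adjusted p = 0.0503 to 0.0916 without any 1 library except AJ_1, AJ_5, AJ_6, AJ_7 and B6_4). Of 22 genes of protein breakdown and atrophy 2 were higher and 0 lower, Mt1 and Fst, the gene of the myostatin inhibitor follistatin (0.61 ± 0.14 SE, adjusted p = 0.00106). Of 22 genes of endoplasmic reticulum stress 1 was higher and 2 lower. Atf5, a transcription factor gene of the stress response, was higher without overlap (0.55 ± 0.10 SE, adjusted p = 4.67e-05), and Dnajc3, a chaperone gene of the reticulum, lower without overlap (-0.30 ± 0.06 SE, adjusted p = 7.28e-05). Herpud1 was lower (-0.40 ± 0.14 SE, adjusted p = 0.0409), and its call was lost (adjusted p = 0.0523 to 0.0776 without any 1 library except AJ_6, B6_2, B6_4, B6_5 and B6_6). Of 23 cholesterol synthesis genes 0 were higher and 2 lower, Mvd (-0.49 ± 0.17 SE, adjusted p = 0.0278), lost at an adjusted p of 0.0553 to 0.0782 without any 1 of AJ_4, AJ_7, AJ_8, B6_6 and B6_8, and Sc5d (-0.46 ± 0.17 SE, adjusted p = 0.0489), lost at 0.0536 to 0.118 without any 1 library except AJ_2 and B6_3.

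Of 19 clock genes 2 were higher and 2 lower in AJ, against 8.58% higher and 10.1% lower over all genes, and with total-count scaling 3 were higher and 0 lower. Arntl, which encodes BMAL1, the activator of the clock, stood at 15.5 to 21.3 CPM in AJ (median 18.8), against 7.13 to 46.7 CPM in B6 (median 35.6), a difference of -0.80 ± 0.25 log2 units (SE, adjusted p = 0.0185). Per1, a repressor of the clock, stood at 52.3 to 112 CPM in AJ (median 72.8), against 20.8 to 74.5 CPM in B6 (median 34.7), a difference of 0.87 ± 0.31 log2 units (SE, adjusted p = 0.0402). The strains overlapped for both, and B6_7 was the lowest library for Arntl. Nr1d1, whose product REV-ERB-alpha represses Arntl, differed by 0.49 ± 0.18 log2 units (SE, adjusted p = 0.0483), and Rora, whose product activates Arntl, by -0.58 ± 0.21 log2 units (SE, adjusted p = 0.0489). Arntl kept its call whichever library was left out, but lost it in 7 of 33 other settings (highest adjusted p = 0.413), among them total-count scaling, limma on variance-stabilised values and each number group alone. The other calls were lost when 1 library was left out, that of Per1 at an adjusted p of 0.0506 to 0.088 without any 1 library except AJ_1, AJ_2, AJ_3, AJ_5, B6_4 and B6_7, that of Nr1d1 at 0.0523 to 0.102 without any 1 library except AJ_1, B6_5 and B6_8 and that of Rora at 0.0505 to 0.102 without any 1 library except AJ_7, B6_1 and B6_2.

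Of 10 nerve and Schwann cell markers 0 were higher and 1 lower, near the 10.1% lower over all genes. It was Cnp, a myelin gene (-0.40 ± 0.15 SE, adjusted p = 0.0458), whose call was lost (adjusted p = 0.0517 to 0.182 without any 1 library except AJ_1, B6_5, B6_7 and B6_8). The 1 lower neutrophil marker was Cxcr2, a chemokine receptor gene (-2.19 ± 0.80 SE, adjusted p = 0.0439), whose call was lost (adjusted p = 0.0569 to 0.417 without any 1 of AJ_1, AJ_2, AJ_3, AJ_5, AJ_6, AJ_8, B6_1 and B6_6). The 1 called skeletal muscle marker was Cacna1s, the calcium channel gene of excitation (-0.26 ± 0.07 SE, adjusted p = 0.00589). Of 20 immediate early genes, 7 erythrocyte and 8 keratinocyte markers 0 were called by edgeR in either direction. Among the 28 list directions with 0 calls by edgeR, 0 to 3 members had an unadjusted p under 0.05, and DESeq2 called a member in 1 of them, 1 gene of glucose uptake and glycolysis lower in AJ.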

How the data were processed

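Polyadenylated RNA of mouse skeletal muscle was sequenced with the KAPA mRNA HyperPrep kit after an ERCC spike-in was added, per the labels' protocols, and the genome build was GRCm38 with DESeq2 among the tools, per the submitters' processing notes. Which aligner and counting tool were used, and whether counting used strand, is not given in the sources used here. The authors deposited expected counts, not scaled, for 19462 genes, with 80.4% of the values whole, and variance-stabilised values on a log2 scale, which served 1 alternative. No spike-in rows were among the genes.

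Expected counts were rounded and tested with edgeR 4.0.16 (R 4.3.3): filterByExpr (16682 genes), TMM factors, and a quasi-likelihood F test of AJ minus B6 in 1 fit of the 61 libraries and 8 strains (53 residual degrees of freedom), with Benjamini-Hochberg adjustment over all genes tested and a threshold of 0.05. Each adjusted p of a gene comes from this test unless another setting is named, and SE is the size of the log2 difference over the root of its F value. CPM levels use TMM-adjusted library sizes and are given as lowest, median and highest or mean ± SD of 8 libraries. Library totals and shares were compared by a 2-sided exact permutation test of 12870 assignments.

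Copies were searched with BLAST 2.17.0 in GENCODE M21 transcripts (at least 95 percent identity over 200 bases and 50 percent of the shorter transcript). Named were the 14 called genes with the largest difference in each direction among those with at least 5 CPM, 4 per direction with copies, known variants, leading members of the described lists, up to 6 genes per window, and, chosen after their values were seen, the called members of lists with 5 or fewer calls. Members, lists and tests were chosen with earlier results of these data known, and no set test was run. Alternatives were RLE and total-count scaling, DESeq2 1.42.0, other filters, fits with other libraries or covariates, and leaving out each library. Sequences are from RefSeq. Some list members are not reported here.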

Additional observations from a re-analysis of the deposited data

Results flagged for a closer look

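Of 446 groups of 8 libraries examined (2 strains for the library values and the genes named), 38 held a library whose gap to its nearest neighbour was large against the whole range of its strain by Dixon's test. Chance alone marks about 1 group in 20, and 19 of the 38 marks fell on B6_5.

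In B6_5, the 20 most abundant genes held 75.3% of the counts and Rn18s-rs5 held 46.3%. For the RNA genes, B6_5 stood far above the other 7 B6 libraries with 40.2 CPM of Rpph1, 60.7 CPM of Rmrp, 68473 CPM of mt-Rnr1 and 86982 CPM of mt-Rnr2, and it held 164394 CPM of Lars2. It was also the highest B6 library for Park2 (11.4 CPM), Wdfy1 (12.2 CPM), Rsad2 (7.78 CPM), Mx2 (1.13 CPM), C3ar1 (3.79 CPM) and Hdac4 (98.8 CPM). It was the lowest for Anxa6 (124 CPM), Pomgnt1 (37.5 CPM), Ndufa3 (45.6 CPM), Ndufs3 (119 CPM), Atp5f1 (269.6 CPM) and Hspb3 (6.24 CPM).

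In B6_1, Ighg2c had 48.1 CPM, Ighg2b 47.7 CPM, Ifi203 24.5 CPM, Cnp 17.97 CPM, Mx1 2.03 CPM and Cxcr2 1.38 CPM, all far above the other B6 libraries. Ucp1 was also marked in B6_1, at 0.0565 CPM, but that level is at the floor of detection. Nnt reached 71.1 CPM in B6_3 and Alad 15.2 CPM in B6_6, and Arntl had 7.13 CPM in B6_7, below its strain.

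Among the AJ libraries, AJ_5 was highest for Kcnf1 (0.654 CPM), Atf5 (58.0 CPM) and Ighg2c (0.101 CPM), AJ_1 for Ighg2b (0.221 CPM), AJ_2 for Gvin1 (1.44 CPM), AJ_3 for Xaf1 (3.64 CPM) and AJ_8 for Glrx2 (14.6 CPM). AJ_2 was lowest for Slc2a4 (328 CPM) and AJ_6 for Sox11 (0.0802 CPM).

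The difference AJ minus B6 itself differed between the libraries numbered 1 to 4 and those numbered 5 to 8 for 2 genes (edgeR's quasi-likelihood test of the interaction, adjusted p). For Gm26917 the difference in numbers 1 to 4 minus that in numbers 5 to 8 was 4.94 ± 0.92 log2 units (SE, adjusted p = 0.0141). Its means in AJ were 75.2 CPM in numbers 1 to 4 and 44.9 CPM in numbers 5 to 8, against 49.3 and 908 CPM in B6, where B6_5 held 3509 CPM and B6_6 to B6_8 averaged 40.8 CPM. For Gm13248 it was -6.58 ± 1.07 log2 units (SE, adjusted p = 0.00214), at means of 0.325 and 0.416 CPM in AJ, against 0.26 and 0 CPM in B6, so its fitted size depends on the prior count.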

How the results depend on the processing

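Between 2161 and 3799 genes were called across the 13 other settings of scaling, test, filter, covariates and libraries named here or in the methods, and 2794 to 2994 when 1 library was left out in turn (1267 to 1377 higher and 1500 to 1631 lower in AJ, and 773 to 854 past 1 log2 unit). With total-count scaling, which was run only with B6_5 included, 2459 genes were higher and 613 lower. The alternatives within library numbers and without several B6 libraries were chosen after seeing the data. With 4 libraries a strain, fewer genes passed: 1322 in numbers 1 to 4 (636 higher, 686 lower, and 504 past 1 log2 unit) and 1322 in numbers 5 to 8 (621 higher, 701 lower). Past 1 log2 unit, 197 genes were called among those with at least 5 CPM in at least 8 libraries, and 137 by limma on the variance-stabilised values. In each other case the cause was not tested.

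Counts by list moved as follows. Total-count scaling called 1 beta-oxidation, 2 branched-chain amino acid and 1 heat shock gene lower. A fit of the 16 libraries alone called 10 branched-chain amino acid and 14 heat shock genes lower, 17 macrophage and 12 matrix genes higher, and 0 lymphocyte genes lower. Against B6_1 to B6_4 alone, 2 regeneration and 5 macrophage genes were higher and 4 beta-oxidation genes lower. Against B6_5 to B6_8 alone, 2 branched-chain amino acid and 5 heat shock genes were lower. Numbers 1 to 4 called 2 regeneration, 4 receptor, 3 macrophage and 3 matrix genes higher, and 3 beta-oxidation, 3 branched-chain amino acid, 1 heat shock and 4 lymphocyte genes lower. Numbers 5 to 8 called 2 regeneration genes and 1 macrophage gene higher, and 3 beta-oxidation, 0 branched-chain amino acid, 4 heat shock and 1 lymphocyte gene lower. Lymphocyte genes lower in AJ numbered 0 with the filter at 5 CPM, 0 with limma, 0 without B6_1 and B6_6, 0 without B6_1, B6_5 and B6_6, 6 with the replicate block, and 6 to 12 when 1 library was left out.

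Signs turned for Igkc (0.64 without B6_1 and B6_6, 0.57 without B6_5 as well), Gsk3a (0.049 with total-count scaling), Rpph1 (0.54 with DESeq2, 0.36 against B6_1 to B6_4, 0.60 in numbers 1 to 4, 0.40 without the 3 libraries, 0.55 without B6_5) and Lars2 (0.11, 0.13, 0.11, 0.21 and 0.13 in the same settings). When 1 library was left out in turn, Rpph1 lay between -3.97 and 0.55 and Lars2 between -2.58 and 0.13. Of 62 called genes named by the selection rule, 41 were called in every alternative, and of 200 called genes named anywhere in the text, 69 were. The library numbers were not taken to pair the samples, since not every same-numbered pair of AJ and B6 libraries had deviations from the strain means that correlated over 0.1: 6 of 8 did (-0.30 to 0.67 over all), and 2 of 8 numbers matched best with their own. With the number as a replicate block, 3102 genes were called (1497 higher, 1605 lower). Without B6_5 the share of mitochondrial counts, ribosomal RNAs included, differed at an exact permutation p of 0.0361 (0.144 adjusted over 4 values). The number of libraries and counts near 0 limit what can be seen for genes under 1 CPM.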
